A study of Mus musculus with 4 samples.

Results

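The genes described here encode the pyruvate dehydrogenase complex and the enzymes that switch it off and on. All 10 of the genes chosen by name were measured, each by 1 probe set, among 19938 named genes on the arrays: the kinases Pdk1, Pdk2, Pdk3 and Pdk4, the phosphatases Pdp1 and Pdp2, and the complex subunits Pdha1, Pdhb, Dlat and Pdhx. The cells were NIH3T3, an established line of mouse fibroblasts, and all 4 samples came from 1 stable clone (p19) that carries the vectors pBI-EGFP-FLAG-mCtcfl and pTA-N, so that mouse Ctcfl with a FLAG tag is made unless doxycycline is present. The 2 control samples had 2 µg/ml doxycycline in the medium, and the 2 Ctcfl samples had been kept without the drug for 48 h, so the drug and the absence of induction coincide and cannot be told apart. Ctcfl encodes a germ-line paralog of the insulator protein CTCF, and the comparison asks which messenger RNAs differ once it is made in fibroblasts. The family was taken up because Pdk4 had one of the larger differences in this same comparison, so the values of Pdk4 are given as a description and support nothing.

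Pyruvate dehydrogenase sits in the mitochondrial matrix and turns pyruvate, the end product of glycolysis, into acetyl-CoA for the citric acid cycle. The kinases phosphorylate Pdha1 and stop the complex, which spares glucose when fatty acids are burned, and the phosphatases remove the phosphate and restart it. Pdk4 is the member best known for responding to starvation, glucocorticoids and fatty acids through FOXO factors, the glucocorticoid receptor and PPARs, and Pdk1 is a target of the hypoxia factor HIF. The phosphorylation itself happens on the protein, which these arrays did not measure.

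Promoters of 3 members are shown first: that of Pdk4, which had the largest difference, that of Pdp2, which had the next largest, and that of Pdk3, the kinase with the smallest. Each is the 250 bases before the RefSeq start (GRCm38.p6) on the strand of the gene, written 5′ to 3′. Capitals mark matches, on either strand, to CCCTC (the core of the CTCF motif), CCAAT (the CCAAT box), ACGTG (a hypoxia element) or ATAAAA (resembling a TATA box). The Pdk4 window is chr6:5496279-5496528 on the minus strand, the Pdp2 window chr8:104591222-104591471 on the plus strand and the Pdk3 window chrX:93832151-93832400 on the minus strand.
Pdk4: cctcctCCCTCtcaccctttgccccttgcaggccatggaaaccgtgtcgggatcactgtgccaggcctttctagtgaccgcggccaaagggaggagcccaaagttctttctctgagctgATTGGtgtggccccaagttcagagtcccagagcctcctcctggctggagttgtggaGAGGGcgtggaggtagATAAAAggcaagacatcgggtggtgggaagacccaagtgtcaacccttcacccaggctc
Pdp2: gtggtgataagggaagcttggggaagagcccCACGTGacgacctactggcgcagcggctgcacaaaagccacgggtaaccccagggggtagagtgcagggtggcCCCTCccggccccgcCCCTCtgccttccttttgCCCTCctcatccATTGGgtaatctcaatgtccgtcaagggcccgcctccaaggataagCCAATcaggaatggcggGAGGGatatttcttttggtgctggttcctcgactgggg
Pdk3: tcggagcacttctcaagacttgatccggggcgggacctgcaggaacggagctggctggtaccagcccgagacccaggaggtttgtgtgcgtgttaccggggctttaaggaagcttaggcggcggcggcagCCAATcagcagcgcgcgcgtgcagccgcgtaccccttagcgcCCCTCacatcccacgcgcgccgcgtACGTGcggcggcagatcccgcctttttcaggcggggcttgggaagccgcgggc

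The Pdk4 window held 2 matches to the CTCF core, 1 to the CCAAT box and 1 to the motif resembling a TATA box, the last beginning 59 bases before the start. No other window of a member held the TATA-like letters, which are found in 17% of 32851 RefSeq promoter windows of this length. The Pdp2 window held 4 matches to the CTCF core, 2 to the CCAAT box and 2 to the hypoxia element, which overlap as they read a palindrome on the 2 strands. The Pdk3 window held 1 match to each of the CTCF core, the CCAAT box and the hypoxia element. Over all windows 60.5% held the CTCF core, 33.8% the CCAAT box and 16.6% the hypoxia element. A FOXO motif, GTAAACA (in 3.17% of windows), and a nuclear receptor repeat, AGGTCA (in 14%), were searched on both strands too and had no match in the 11 windows listed for 9 of the members. Pdp1 was not matched to a window. CpG, the dinucleotide at which DNA is methylated, occurred 6 times in the Pdk4 window, which is also the median over all windows, 11 times in that of Pdp2 and 29 times in that of Pdk3. The windows of Dlat, Pdha1, Pdhb and Pdhx held 15, 15, 20 and 24 CpG, those of the 2 listed Pdk2 starts 12 and 19, and those of the 2 Pdk1 starts 19 and 2. The matches describe letters only, and no binding or methylation was measured.

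The arrays gave deposited log2 values in which a difference of 1 is a factor of 2. Their medians lay between 5.20 and 5.24 and their lower quartiles between 4.09 and 4.12 over 35511 probe sets. No detection call was used, and a low value may be partly background. Ctcfl itself was 7.77 and 7.71 on the control arrays and 10.37 and 10.35 on the Ctcfl arrays (log2 difference 2.62, SE 0.08, adjusted p = 5.38e-04 by limma), which matches the labels. Its control values were not low: they lay above the upper quartiles of the arrays, 7.4 to 7.43. The source of that signal was not tested. Fibroblast markers such as Col1a2 (group means 12.16 and 12.09) and Vim (12.11 and 12.05) were high, while Fap, also a fibroblast marker, lay below the lower quartile at 3.47 and 3.32. The lists of 7 adipocyte, 8 muscle, 8 macrophage, 8 epithelial and 8 endothelial markers had means between 4.23 and 5.29 on every array, and none of these 39 genes passed the test (lowest adjusted p = 0.509 by limma).

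Of the 4 kinases, Pdk4 had the largest difference. Its log2 values were 6.0 and 5.89 on the control arrays and 5.23 and 5.26 on the Ctcfl arrays. Both Ctcfl arrays lay below both control arrays, with a gap of 0.63 between the nearest pair, and the arrays of a group lay close to each other. The group means were 5.95 ± 0.08 and 5.25 ± 0.02 (SD, n = 2 per group), a log2 difference of -0.70 (SE 0.09), or 61.6% of the control level (95% interval 53.1 to 71.4%). The Ctcfl values lay near the array medians of 5.20 to 5.24, and their distance from background was not measured. In the fit over all genes Pdk4 did not pass the threshold of 0.05 (adjusted p = 0.115 by limma). Its difference was the 16th largest among the lower values of 19938 genes. Its neighbours in that order were Egr1 (-0.75) and Dpt (-0.74) just before it and A530064D06Rik (-0.69) and Fdft1 (-0.68) just after, none of which passed. The interval takes no account of Pdk4 having been picked for its size. In whole-culture RNA, fewer cells that make a transcript and less of it per cell cannot be told apart.

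The other kinases differed by less. Pdk1, which is induced in hypoxia, had 7.47 and 7.34 on the control arrays against 7.24 and 7.26 on the Ctcfl arrays. The groups did not overlap, but the nearest arrays were only 0.08 apart, and the log2 difference was -0.15 (SE 0.09, adjusted p = 0.575 by limma). Pdk2, the kinase most widely expressed across tissues, had 5.28 and 4.86 against 5.0 and 4.80. These values overlapped, its control arrays had the widest spread of any member (SD 0.30), and the 95% interval of its log2 difference ran from -0.55 to 0.21. Pdk3, whose kinase binds strongly to a lipoyl domain of Dlat, had 8.59 and 8.5 against 8.48 and 8.5, also overlapping. Its log2 difference was -0.05, with a 95% interval from -0.26 to 0.15, which corresponds to 83.3 to 111% of the control level.

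Measured within each array, Pdk4 minus the mean log2 value of Pdk1, Pdk2 and Pdk3 was -1.11 and -1.01 on the control arrays and -1.68 and -1.59 on the Ctcfl arrays. The groups differed by -0.57 in this measure, less than the -0.70 of Pdk4 alone, as the other 3 kinases also had lower means. No test of this difference is given, since Pdk4 was chosen for its difference.

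**Figure D1:**
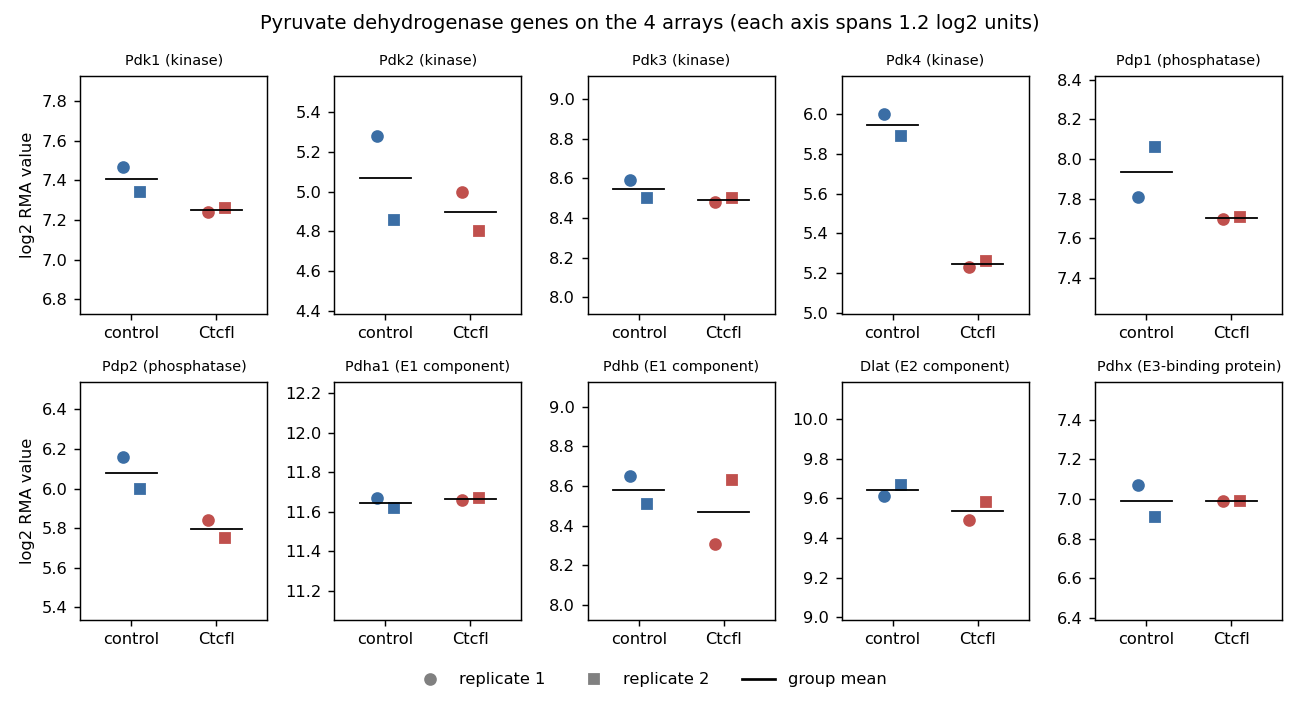
Deposited log2 RMA value (vertical axis, each spanning 1.2 units) of the 10 genes on the 2 control arrays (blue) and the 2 Ctcfl arrays (red), with circles for replicate 1, squares for replicate 2 and lines for group means. The Pdk4 groups are separated by 0.63, while the groups overlap for Pdk2, Pdk3, Pdha1, Pdhb and Pdhx.

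Both phosphatases had lower means in the Ctcfl arrays, and neither passed the test. Pdp2, the phosphatase that does not need calcium, had 6.16 and 6.0 on the control arrays and 5.84 and 5.75 on the Ctcfl arrays. Its groups were 0.16 apart at the nearest point. The log2 difference was -0.28 (SE 0.10, adjusted p = 0.415 by limma), or 82.1% of the control level (95% interval 69.7 to 96.6%). Pdp1, the calcium-stimulated phosphatase, had 7.81 and 8.06 against 7.70 and 7.71. Here the Ctcfl arrays were nearly equal and the control arrays spread more (SD 0.18), so that the size of the difference, -0.23 (SE 0.11, adjusted p = 0.509 by limma), depended on the control array used: it was -0.36 without control replicate 1 and -0.11 without control replicate 2. The kinases and phosphatases act against each other. The mean log2 value of the 4 kinases minus that of the 2 phosphatases was -0.15 and -0.38 on the control arrays and -0.28 on each Ctcfl array, so the Ctcfl arrays lay between the controls.

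The subunits of the complex showed small differences. Pdha1, the phosphorylated alpha subunit of the decarboxylase, had 11.67 and 11.62 on the control arrays and 11.66 and 11.67 on the Ctcfl arrays. These 4 values spanned 0.05, and the 95% interval of the difference, -0.18 to 0.22, corresponds to 88.2 to 117% of the control level. Pdhb, the beta subunit of the same enzyme, had 8.65 and 8.51 against 8.31 and 8.63. The 2 Ctcfl arrays were further apart than the group means, and the difference of -0.11 (SE 0.13) became 0.05 without Ctcfl replicate 1. Dlat, the core acetyltransferase that carries the lipoyl arms, had 9.61 and 9.67 against 9.49 and 9.58, with groups separated by only 0.03. Its difference was -0.10 (SE 0.09, adjusted p = 0.698 by limma). Pdhx, which anchors the third enzyme to the core, had 7.07 and 6.91 against 6.99 on both Ctcfl arrays, and both group means were 6.99. The mean of the 4 subunits was 9.25 and 9.18 on the control arrays and 9.11 and 9.22 on the Ctcfl arrays, which overlap.

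Of the 10 members, 0 passed the threshold by limma, where 0.0451% of all genes did (0.015% lower and 0.0301% higher in the Ctcfl arrays). At an unadjusted p under 0.05 there were 2 (Pdk4 and Pdp2), both lower, against 5.32% of all genes lower and 10.7% in either direction. Both Ctcfl arrays lay below both controls for 5 members (Pdk1, Pdk4, Pdp1, Pdp2 and Dlat) and above them for 0, against 20.6% of all genes below, 20.6% above and 41.1% in either direction. The median log2 difference of the members was -0.13, against 0.00 over all genes, and the members other than Pdk4 ran from -0.28 to 0.02. The family was picked with this comparison in view, so these counts are a description. Apart from Pdk4, every member lay inside the band from -0.32 to 0.31 that holds the middle 95% of all genes.

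**Figure D2:**
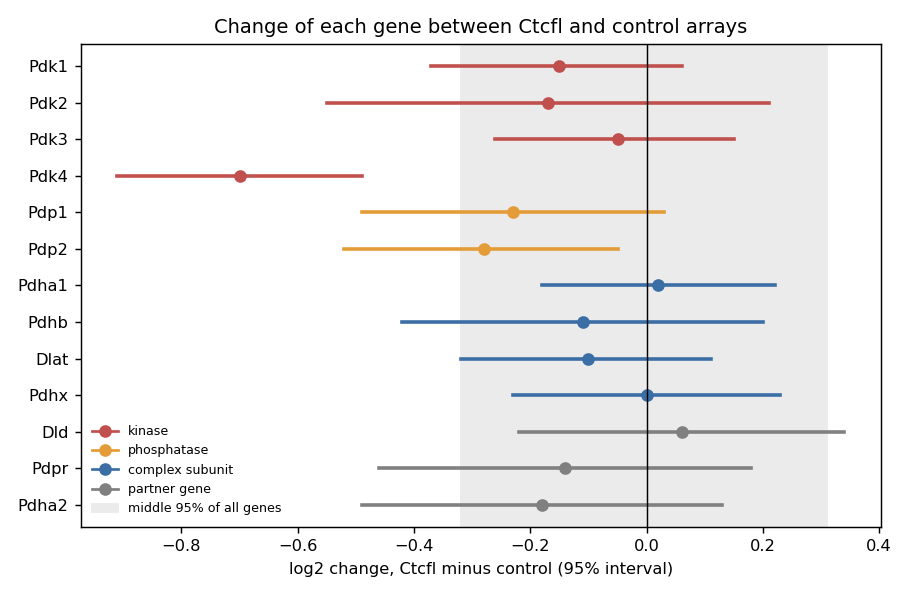
Log2 difference between Ctcfl and control means (horizontal axis) with its 95% interval from limma for the 10 members and 3 partner genes; the grey band holds the middle 95% of all genes, -0.32 to 0.31. Pdk4, at -0.70, is the only point outside the band, and the intervals of Pdk4 and Pdp2 do not reach 0.

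**Figure D3:**
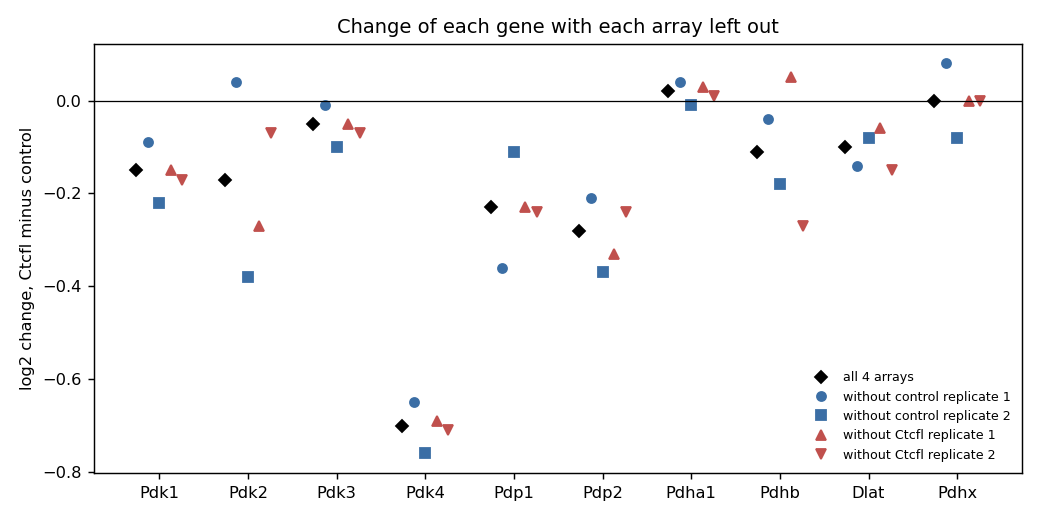
Log2 difference (vertical axis) of each member with all 4 arrays (black diamonds) and with each array left out in turn (blue for a control array, red for a Ctcfl array). Pdk4 stays between -0.76 and -0.65, whereas Pdk2 runs from -0.38 to 0.04 and Pdhb from -0.27 to 0.05.

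Leaving out any 1 array moved Pdk4 only between -0.76 (without control replicate 2) and -0.65 (without control replicate 1). With single arrays left out, Pdp2 had a difference of -0.37 without control replicate 2 and -0.21 without control replicate 1. In each of these 4 fits 0 of all 19938 genes passed by limma (1329 to 1663 at an unadjusted p under 0.05). The call on Pdk4 depended on how the variance was modelled: with an intensity trend and robust variances it passed (adjusted p = 0.00481 by limma) and 479 genes passed in all, and it was the 1 member that did.

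The partner genes of the complex had differences smaller than that of Pdp2. Dld, the third enzyme of the complex, shared with its sister complexes, had 9.84 and 9.93 on the control arrays against 9.81 and 10.08 (log2 difference 0.06, 95% interval -0.22 to 0.34). Pdpr, the regulatory subunit of the phosphatase, had 6.84 and 6.77 against 6.84 and 6.49, a log2 difference of -0.14 (95% interval -0.46 to 0.18). The testis form Pdha2 had 3.88 and 3.65 against 3.71 and 3.46, below the lower quartile of every array, a log2 difference of -0.18 (95% interval -0.49 to 0.13). In all 3 genes the groups overlapped, and 0 of 3 passed.

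Genes that supply pyruvate or use it otherwise were measured for 15 of 16 listed, and 0 passed by limma. At an unadjusted p under 0.05 there were 3, all lower, against 5.32% of all genes lower. Without overlap 4 were lower and 1 higher (26.7% and 6.67%, against 20.6% of all genes in each direction), and the median was -0.02. Gpt2, the mitochondrial alanine transaminase, had 8.0 and 8.10 against 7.48 and 7.46 (log2 difference -0.58, SE 0.09, adjusted p = 0.152). Ldhb, a lactate dehydrogenase subunit, had -0.46 (SE 0.11), and Pck2, the mitochondrial enzyme that makes phosphoenolpyruvate, had -0.39 (SE 0.09). Gpt2 and Ldhb act on pyruvate itself, and the product of Pck2 is a precursor of pyruvate.

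Downstream, citric acid cycle genes had lower values in 13 of 14 measured members, against 9695 of all 19938 genes. Without overlap 9 of the 14 were lower (64.3%, against 20.6% of all genes), and the median was -0.09. By limma 0 passed (5 at an unadjusted p under 0.05, all lower, against 5.32% of all genes lower). Idh2, the mitochondrial NADP-linked isocitrate dehydrogenase, had 10.36 and 10.32 against 9.98 and 9.86 (log2 difference -0.42, SE 0.09, adjusted p = 0.265 by limma). The succinate dehydrogenase subunit Sdhb had -0.41 (SE 0.09) and the fumarase gene Fh1 had -0.26 (SE 0.08). Cs, the citrate synthase that takes up the acetyl-CoA, had only -0.09.

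The sister complexes, which act on other oxoacids with the same design, held genes of either sign. Of 9 genes, 3 were lower and 4 higher without overlap (33.3% and 44.4%, against 20.6% of all genes in each direction). The median was 0.02 and 0 passed by limma. At an unadjusted p under 0.05, 2 were higher and 1 lower, against 10.7% of all genes in either direction. Dbt and Bckdhb, both of the branched-chain oxoacid dehydrogenase, had 0.29 (SE 0.09) and 0.27 (SE 0.08) with adjusted p-values of 0.377 and 0.383. Bckdk, which inhibits that complex as the Pdk enzymes inhibit this one, had 9.31 and 9.38 against 9.20 and 9.14, a difference of -0.18 (SE 0.09). Ogdhl, a relative of the oxoglutarate dehydrogenase, had -0.21.

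The lipoylation list holds genes around the lipoyl cofactor that Dlat carries, and not all of them attach it. Of 13, 6 were lower and 1 higher without overlap (46.2% and 7.69%, against 20.6% of all genes in each direction), with a median of -0.06. By limma 0 passed. At an unadjusted p under 0.05, 1 was higher and 2 lower, against 10.7% of all genes in either direction. The lipoyl transferase gene Lipt2 had 6.83 and 6.93 against 6.49 on both Ctcfl arrays (log2 difference -0.39, SE 0.09, adjusted p = 0.277 by limma). The iron-sulfur assembly genes Iba57 and Isca2 had 0.34 and -0.30. Of the genes that supply thiamine, the cofactor of Pdha1 and Pdhb, 2 of 5 listed were measured, and 0 passed by limma. The transporter Slc19a2 had -0.14. Thtpa had -0.29, with overlapping groups (4.28 and 4.90 on the control arrays against 4.32 and 4.27).

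Among 20 transcription factors and coactivators known to act on Pdk genes, 9 were lower and 2 higher without overlap (45% and 10%, against 20.6% of all genes in each direction). The median was -0.06 and 0 passed by limma (3 at an unadjusted p under 0.05, all lower, against 5.32% of all genes lower). The coactivator gene Ppargc1a, which raises Pdk4 in muscle and liver, had 7.67 and 7.74 on the control arrays against 7.25 and 7.24 on the Ctcfl arrays, a difference of -0.46 (SE 0.08, adjusted p = 0.214). The orphan receptor gene Nr4a1 had -0.33 (SE 0.09) and the PPAR partner Rxra had -0.24 (SE 0.09). The other genes on the list had smaller differences than Rxra. The larger of these were the coactivator gene Ppargc1b at -0.21, Rxrb at -0.19, Foxo4 at 0.18, Ppard at 0.17 and Epas1 at -0.17. Ppara had 0.03, Pparg 0.03, Foxo1 -0.12, Foxo3 -0.02, the glucocorticoid receptor gene Nr3c1 -0.02 and Hif1a 0.10.

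Genes that share such regulators with Pdk4, or in the case of HIF with Pdk1, were read against all genes. Of these, 20.6% were lower and 20.6% higher without overlap. Of 20 PPAR target and fatty acid oxidation genes, 4 were lower and 4 higher without overlap (20% each, close to the share of all genes), with a median of 0.02. The medium-chain acyl-CoA dehydrogenase gene Acadm had -0.45 (SE 0.09), the thioesterase gene Acot2 -0.33, and the lipid droplet gene Plin2 0.26. Of 17 FOXO targets, 7 were higher and 2 lower without overlap (41.2% and 11.8%), with a median of 0.06 and the largest values in Sesn3 (0.38, SE 0.11), the ubiquitin ligase gene Fbxo32 (0.30) and Pik3ip1 (0.26). Of 12 glucocorticoid targets, 6 were lower and 3 higher without overlap (50% and 25%), with a median of -0.03. The largest differences were in the metallothioneins Mt2 (-0.99, SE 0.12) and Mt1 (-0.25) and the kinase gene Sgk1 (-0.21). Zbtb16, at 0.21, was the highest of this list. Of 17 HIF targets other than Pdk1, 5 were lower and 4 higher without overlap (29.4% and 23.5%, near the share of all genes), led by Adm at 0.78 (SE 0.10), Vegfa at -0.39 and Pfkfb3 at 0.33. In each of these 4 lists 0 genes passed by limma, and over all 11 lists 0 of 141 genes passed (lowest adjusted p = 0.115). Of the 141, 30 had an unadjusted p under 0.05, 11 higher and 19 lower, against 10.7% of all genes in either direction. With an intensity trend and robust variances 16 of them passed by limma, where 479 of all 19938 genes did (2.4%).

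**Figure D4:**
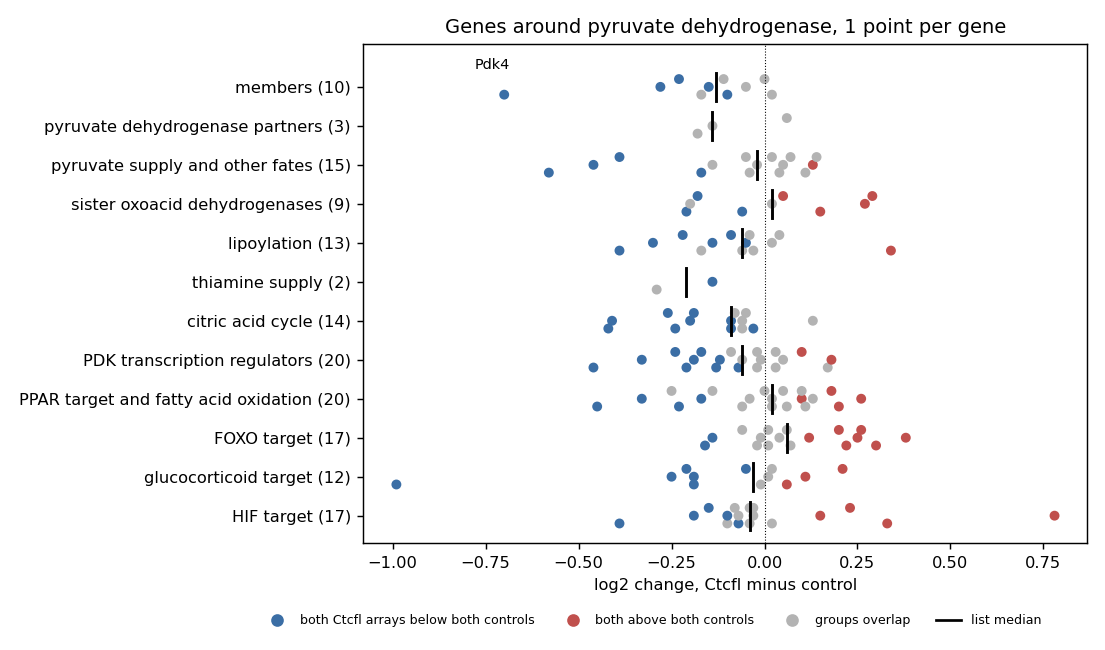
Log2 difference between Ctcfl and control means (horizontal axis), 1 point per gene, for the members and the 11 related lists with the number measured in brackets; blue and red mark genes whose groups do not overlap, grey those that overlap, and black bars the list medians. Citric acid cycle genes lie mostly below 0 (median -0.09) and FOXO targets mostly above (median 0.06).

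The genes that lie beside Pdk4 on its chromosome had smaller differences. The RefSeq table lists 12 of them as protein-coding, 6 on either side, and 11 were measured; the other, Gmfg-ps, carries the name of a pseudogene. They were chosen after the values of Pdk4 were known. Their log2 differences ran from -0.17 (Sem1, a proteasome subunit gene) to 0.26 (Pon3, a paraoxonase gene), and 0 passed (lowest adjusted p = 0.431 by limma). Of the 11, 3 were higher without overlap (Ppp1r9a at 0.23, Pon3 and Pon2) and 1 was lower (Sem1), against 20.6% of all genes in each direction. Asb4, next to Pdk4 on the side of the paraoxonases, had 3.68 and 3.83 against 3.49 and 3.75. Dync1i1, next to it on the other side, had 4.18 and 4.07 against 4.08 and 4.17. The groups of both overlapped. Asb4 lay below the lower quartile on every array and Dync1i1 near it.

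**Figure D5:**
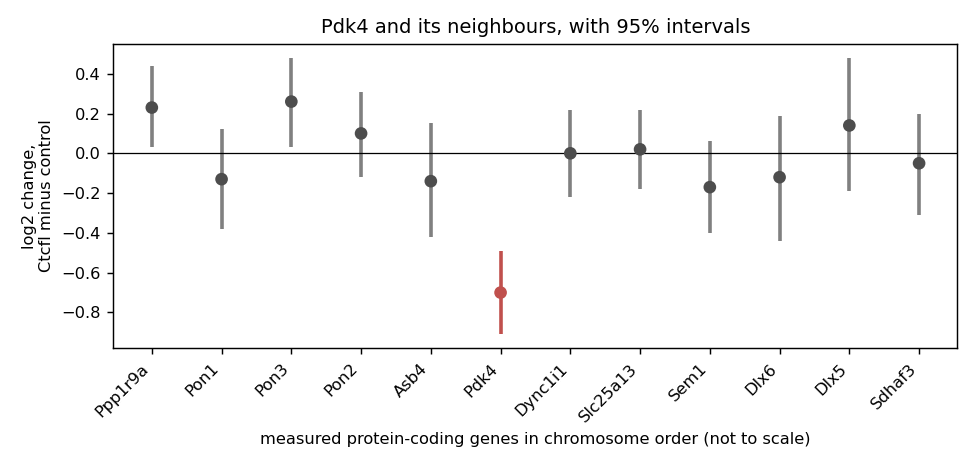
Log2 difference between Ctcfl and control means with its 95% interval (vertical axis) for Pdk4 (red) and the 11 measured neighbours (grey) in chromosome order, not to scale. Pdk4 is at -0.70 and the neighbours lie between -0.17 and 0.26.

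The 5 named genes whose pattern over the 4 arrays was closest to that of Pdk4 were found by the Euclidean distance between log2 values centred on each gene's own mean. Thbs1, the matrix protein thrombospondin, came closest (distance 0.064), with 10.03 and 9.91 against 9.30 and 9.36. Next were Ereg (0.095), a ligand of the EGF receptor, the orphan receptor gene Gpr85 (0.11), the matrix gene Spon2 (0.114) and the potassium channel gene Kcna4 (0.117). Their log2 differences lay between -0.66 and -0.60, and 0 of 5 passed. With 4 arrays such likeness says little more than that these genes had a similar difference.

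Fibroblast markers also had lower values in the Ctcfl arrays: both Ctcfl arrays lay below both controls for 7 of 10 and above for 1 (70% and 10%, against 20.6% of all genes in each direction), with a list mean of 9.53 on each control array and 9.38 and 9.34 on the Ctcfl arrays. Pdgfrb had -0.56 and Col3a1 -0.38, while Col1a1 had 0.06 and Thy1 0.00. By limma 0 of 10 passed (3 at an unadjusted p under 0.05, all lower, against 5.32% of all genes lower). Their part in the result was not tested.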

How the data were processed

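Messenger RNA of 4 samples, 2 control and 2 Ctcfl, was measured on Affymetrix arrays. The deposited values are on a log2 scale, computed by the authors with RMA in Expression Console, per the labels and the submitters' processing notes; the version was not given in the sources used here. RMA subtracts background, equalises the distributions of the arrays and summarises probes, which can shrink differences of dim genes. Probe sets were named by the platform annotation: 21789 had 1 symbol, 1621 had several and 12101 were not listed. The brightest probe set stood for each gene. The groups were tested against each other over 19938 genes with limma 3.58.1 and R 4.3.3 (lmFit, eBayes, two-sided, Benjamini-Hochberg, threshold 0.05), and the script was tested on simulated data. Nothing in the labels tells separate cultures from repeats of 1 culture: the p-values measure the spread between the arrays, which may be technical, and the number of arrays limits the precision.

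The members and lists were chosen with earlier results of these data known. Named were all members, all partners and the 5 genes most like Pdk4. From each list, up to 4 genes past the threshold were named, or else up to 3 with non-overlapping groups and the largest difference. Other genes of the lists, markers and neighbours were picked with their values in view. Alternatives were quantile normalisation, median centring, a filter on the dimmest 33.3% of genes, the mean over probe sets, all probe sets, robust variances with an intensity trend (using statmod 1.5.0), a replicate block, ordinary t statistics and each array left out. Promoters came from RefSeq (GRCm38.p6). Figures used matplotlib 3.10.9.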

Additional observations from a re-analysis of the deposited data

How the results depend on the processing

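Over 13 alternatives for each of the 9 members with a difference other than 0.00, 113 of 117 values did not reverse and kept their side of the threshold. Among these is Pdha1 with median centring, which at 0.00 has no direction. Pdk4 passed once, with an intensity trend and robust variances (adjusted p = 0.00481 by limma), and its adjusted p otherwise ran from 0.0509 (without the dimmest 33.3% of genes) and 0.0526 (median centring) to 0.651 (replicate block). The number of members past the threshold was 0, and 1 under that alternative. With 1 array left out, the direction turned for Pdk2 (0.04 without control replicate 1, range -0.38 to 0.04), Pdha1 (-0.01 without control replicate 2, range -0.01 to 0.04) and Pdhb (0.05 without Ctcfl replicate 1, range -0.27 to 0.05); 1 array decides each of these signs. Pdhx, at 0.00, has no direction and ran from -0.08 without control replicate 2 to 0.08 without control replicate 1. The median over the members was -0.13 with all arrays and ran from -0.16 to -0.07 with 1 array left out. Related genes past the threshold numbered 0, but 1 (Mt2) with median centring and 16 with the intensity trend.

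The count over all genes was 9 (6 higher, 3 lower), 31 with median centring (16 higher, 15 lower), 7 higher and 2 lower with quantile normalisation, 20 without the dimmest 33.3% of genes, 479 with the intensity trend (220 higher, 259 lower), and 0 over all probe sets (2764 at an unadjusted p under 0.05), with ordinary t statistics (1940, over the 19924 genes whose arrays differ within a group) and with any 1 array left out (1329 to 1663). With the replicate block it was 0 (1468 unadjusted). The labels do not say whether arrays with the same replicate number share a culture or batch. Differences between replicates correlated at -0.102 between groups over genes, which cannot settle it. A crossed pairing as block, added after seeing the data, gave 0 (2105 unadjusted). Distance from background was not measured, which limits what can be said of low values such as those of Pdk4 in the Ctcfl arrays, Pdk2 and Pdha2.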
